A study of Mus musculus with 11 samples.

Results

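The interferon-stimulated genes examined here are Stat2, Irf7, Irf9, Ifit1, Ifit3, Isg15, Rsad2, Oasl2 and Usp18. They were chosen by name, with earlier results of these data known, and all 9 were found among the 36788 Ensembl genes of a liver RNA-seq table. The livers came from WT C57BL/6 female mice over 12 weeks old. Every mouse was ovariectomized (OVX) and kept on a high-fat diet, and then either FSH (mice 1, 2, 3, 4 and 6) or saline (mice 1 to 6) was injected, giving 5 FSH and 6 saline livers. FSH, follicle-stimulating hormone, is made by the gonadotropes of the pituitary, and the comparison asks what its administration does to the liver when no ovary is left to respond. Values are CPM, the reads on a gene after the reads on all genes of that liver were scaled to 1000000. Between 10801891 and 19909327 reads were counted per liver, and the members had between 41 and 692 reads each. Beyond these traits the labels tell the mice apart only by number, and each number was taken to mean a separate animal. The p-values cover the spread between these livers.

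Interferons are secreted when a cell senses foreign nucleic acid, and they bind receptors on neighbouring cells. Type I interferon receptors signal through the kinases Jak1 and Tyk2 to STAT factors, among which Stat2 joins Irf9 in a complex known as ISGF3. This complex enters the nucleus, binds a short repeated motif in promoters, the interferon-stimulated response element (ISRE), and switches on genes whose products hinder viruses, tag proteins with ISG15, or shut the pathway down again. Hepatocytes and the resident macrophages of the liver, Kupffer cells, both carry these receptors.

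The promoters show how this motif is written in front of the members. The ISRE core was searched as GAAA, any 2 bases and GAAA again, on both strands, in windows running from 250 bases before to 50 bases after each RefSeq start site (GRCm38.p6). A window was found for 8 of the 9 genes (all but Usp18), and 5 of those 8 (Isg15, Stat2, Rsad2, Ifit3 and Ifit1, not Irf7, Irf9 or Oasl2) held the core, against 3.44% of all 32851 windows. On the minus strand of chr4:156200850-156200921, the Isg15 promoter carried 3 overlapping copies that began 78, 72 and 66 bases before the start site. The Ifit3 window had copies at 156 and 122 bases before its start (chr19:34583348-34583441, plus strand), and Ifit1 had copies at 104 and 85 bases (chr19:34640760-34640838, plus strand). A single copy lay 120 bases before the start of Rsad2 (chr12:26456538-26456597, minus strand) and 222 bases before that of Stat2 (chr10:128270251-128270310, plus strand). These stretches are shown because they carry the motif that ISGF3 binds, and the capitals mark the core, which reads TTTC, 2 bases and TTTC where it lies on the opposite strand.
Isg15: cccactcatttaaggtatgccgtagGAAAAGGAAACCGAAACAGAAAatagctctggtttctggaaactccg
Ifit3: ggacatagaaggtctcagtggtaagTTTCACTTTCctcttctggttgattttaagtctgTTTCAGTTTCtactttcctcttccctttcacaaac
Ifit1: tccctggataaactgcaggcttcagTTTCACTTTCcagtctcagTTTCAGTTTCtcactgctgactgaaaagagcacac
Rsad2: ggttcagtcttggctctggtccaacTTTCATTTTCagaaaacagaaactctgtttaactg
Stat2: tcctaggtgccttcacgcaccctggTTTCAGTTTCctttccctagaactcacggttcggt
The core of the gamma-activated site, TTCNNNGAA, a motif of the interferon gamma response, was in 0 of the 8 members with a window and in 8.30% of all windows. A match is a run of letters and not a measured binding site.

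Across the 9 genes, none differed between FSH and saline livers at an adjusted p under 0.05 (limma on log2(CPM + 0.5), Benjamini-Hochberg adjustment over 12733 genes), whereas 10.6% of all tested genes did (1350 genes, of which 788, or 6.19%, were higher and 562, or 4.41%, lower with FSH). Past an absolute log2 fold change of 1 as well, the count was again 0 by limma, edgeR, DESeq2 and voom, against 1.83% of all genes. At an unadjusted p under 0.05 there were 4 members, beside 25.1% of all genes: Ifit1, Ifit3 and Usp18 with higher and Rsad2 with lower means in FSH livers. edgeR called 1 member (Rsad2), DESeq2 called 2 (Rsad2 and Ifit3) and voom called 0. The log2 fold changes were positive for 5 members and negative for 4, with a median of 0.015 beside 0.024 over all tested genes. For 0 of the 9 were the groups free of overlap, which held for 6.67% of all genes (3.95% with FSH higher and 2.72% with FSH lower).

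**Figure D1:**
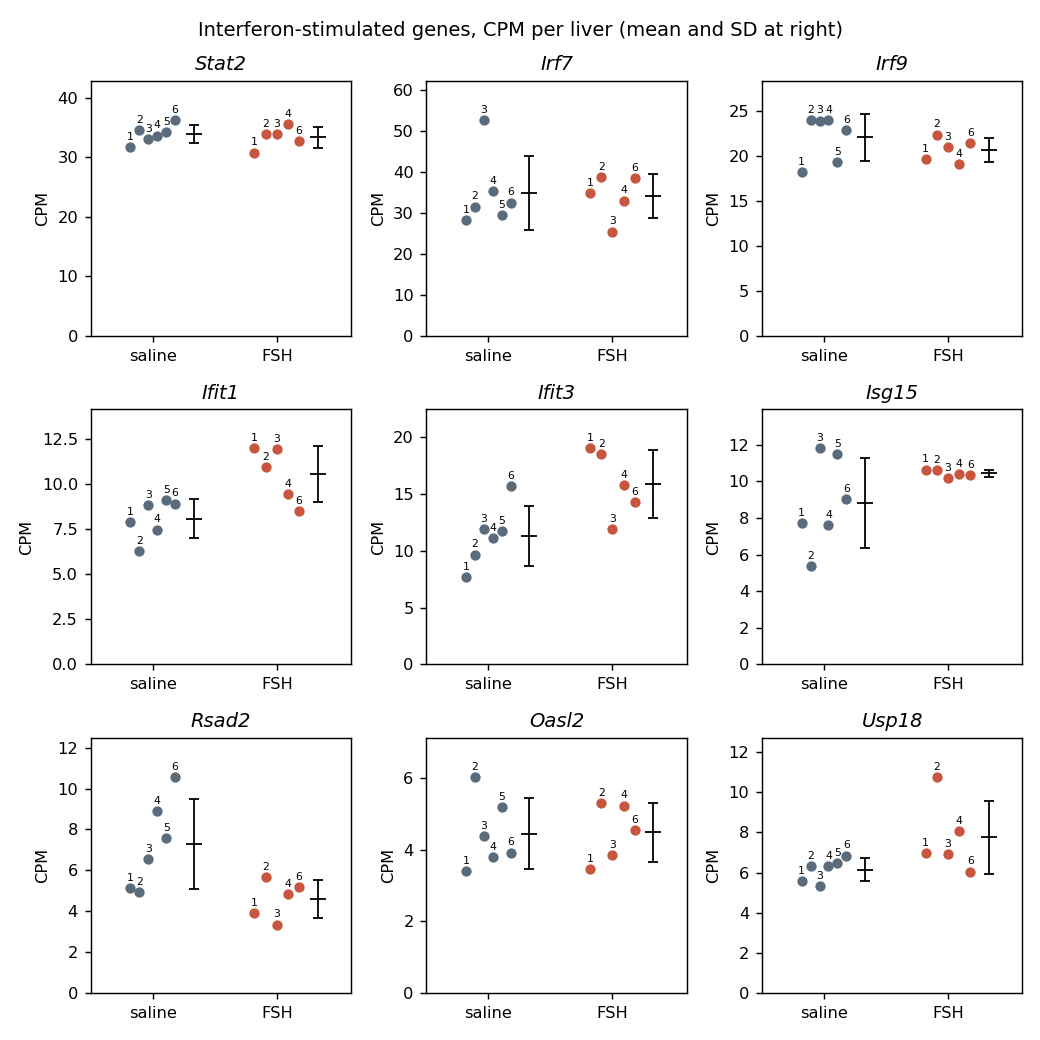
CPM of each of the 9 interferon-stimulated genes in every liver (points, with the mouse number) and the group mean with its SD (bars), saline on the left and FSH on the right of each panel. The groups overlap in all 9 panels. Rsad2 has the lower FSH mean, Ifit1 and Ifit3 the higher, and the 5 FSH points of Isg15 lie within 10.2 to 10.6 CPM.

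Among the transcription factors, Stat2 had nearly equal means in the groups. Its levels were 30.8, 33.9, 33.9, 35.5 and 32.7 CPM in FSH mice 1, 2, 3, 4 and 6. In saline mice 1 to 6 they were 31.7, 34.5, 33.1, 33.6, 34.2 and 36.3 CPM. Stat2 lies at chr10:128270559-128292849 (GRCm38) and is the subunit that gives ISGF3 its activating domain. The means were 33.4 ± 1.75 (SD, n = 5) and 33.9 ± 1.53 CPM (SD, n = 6), the log2 fold change was -0.02 (SE 0.07), and the 95% interval of the fold ran from 0.881 to 1.10 (limma adjusted p = 0.890). That interval is the narrowest among the 9 members.

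Irf9, the subunit of ISGF3 that recognizes DNA, averaged 20.7 ± 1.34 CPM in FSH livers (SD, n = 5) and 22.1 ± 2.60 CPM in saline livers (SD, n = 6). The FSH livers held 19.7, 22.4, 21.0, 19.1 and 21.5 CPM. The saline livers held 18.3, 24.0, 24.0, 24.0, 19.3 and 23 CPM. All 5 FSH values were under the saline median of 23.5 CPM, yet saline mouse 1 had the lowest value of all and the groups overlapped. The log2 fold change was -0.08 (SE 0.10, fold interval 0.817 to 1.09, limma adjusted p = 0.657), and it ranged from -0.13 (without saline mouse 1) to -0.05 (without FSH mouse 4) with one liver left out. Irf9 (chr14:55603571-55610030) shares part of its span with Rnf31 on the same strand, so reads in that stretch could have been given to either gene.

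Irf7, the factor that amplifies interferon transcription once the pathway is on, was the most variable of the 3. Its levels were 34.8, 38.8, 25.4, 33 and 38.5 CPM in the FSH livers. The saline livers had 28.3, 31.5, 52.6, 35.3, 29.4 and 32.5 CPM. One saline liver, that of mouse 3, stood far above the rest, while the remaining 10 livers of both groups lay between 25.4 and 38.8 CPM. The log2 fold change was -0.02 (SE 0.15, fold interval 0.788 to 1.24, limma adjusted p = 0.961), and it was 0.11 (adjusted p = 0.660) without saline mouse 3 and 0.08 (adjusted p = 0.815) without FSH mouse 3. Irf7 (chr7:141262706-141266481) overlaps Phrf1 on the opposite strand, and whether the counting used strand is not given in the sources used here.

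Of the 9 members, Rsad2 had the biggest difference in size. Rsad2 encodes viperin, an enzyme that turns a nucleotide into a chain terminator for viral polymerases. The FSH livers contained 3.92, 5.68, 3.34, 4.84 and 5.17 CPM. In saline livers the values were 5.15, 4.95, 6.56, 8.90, 7.59 and 10.6 CPM. FSH mice 1, 3 and 4 lay below every saline liver and saline mice 3 to 6 lay above every FSH liver, so that the overlap was made by FSH mice 2 and 6 and saline mice 1 and 2. The means were 4.59 ± 0.949 (SD, n = 5) and 7.29 ± 2.20 CPM (SD, n = 6). The log2 fold change was -0.59 (SE 0.19), a fold of 0.666 with an interval from 0.502 to 0.883. This missed the threshold after adjustment (limma p = 0.00773, adjusted p = 0.0631) and an exact permutation test of this single gene gave p = 0.0303 (two-sided, over all splits of the 11 livers into 5 and 6, smallest possible 0.00216). The call turned on the setting: adjusted p ranged from 0.0118 to 0.122 over the 12 other settings and from 0.0346 to 0.159 with one liver left out, passing without saline mouse 1 (0.0422) or saline mouse 2 (0.0346).

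Rsad2 (chr12:26442746-26456452, minus strand) has a neighbour that is also induced by interferon, Cmpk2, a mitochondrial nucleotide kinase that makes the substrate viperin uses and is read in the opposite direction from a start 12752 bases away. Cmpk2 was at 3.11, 2.66, 3.51, 3.88 and 3.33 CPM in the FSH livers. It was at 5.56, 4.0, 5.25, 4.26, 4.81 and 7.96 CPM in the saline livers. Every FSH liver was below every saline liver, and Cmpk2 was lower with FSH by limma (log2 fold change -0.59, SE 0.16, adjusted p = 0.0288), a call that 6 of the 23 alternatives lost. Its window held no ISRE core, in contrast to the Rsad2 window shown above.

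Ifit1 and Ifit3 belong to a family of cytosolic proteins that bind viral RNA or each other, and they lie 57.34 kb apart (between starts) on chromosome 19. Ifit3 (chr19:34583531-34588731) had 19.0, 18.5, 11.9, 15.8 and 14.3 CPM in the FSH livers. It had 7.72, 9.67, 11.9, 11.1, 11.8 and 15.7 CPM in the saline livers. FSH mice 1, 2 and 4 were above every saline liver, and the other 5 saline livers were below every FSH liver, so that the overlap came from saline mouse 6 alone. FSH mouse 3 and saline mouse 3 had nearly the same level. The means were 15.9 ± 2.97 (SD, n = 5) and 11.3 ± 2.67 CPM (SD, n = 6). The log2 fold change was 0.48 (SE 0.16), with a fold interval of 1.10 to 1.78 (limma p = 0.00949, adjusted p = 0.0716; exact permutation p = 0.0238, two-sided). Without FSH mouse 3 the adjusted p was 0.0482, and without saline mouse 6 it was 0.0268.

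Ifit1 (chr19:34640871-34650009) was measured at 12.0, 10.9, 11.9, 9.43 and 8.5 CPM in FSH livers. Its saline values were 7.89, 6.26, 8.83, 7.46, 9.07 and 8.89 CPM. Only FSH mouse 6 lay inside the saline range, and the other 4 FSH livers were above all 6 saline livers. The means of 10.5 ± 1.53 (SD, n = 5) and 8.07 ± 1.09 CPM (SD, n = 6) gave a log2 fold change of 0.36 (SE 0.12, fold interval 1.07 to 1.55, limma p = 0.0107, adjusted p = 0.0772, exact permutation p = 0.0195, two-sided), and without FSH mouse 6 limma's adjusted p was 0.0361. The nearby paralog Ifit3b, 24.439 kb from Ifit3, had a log2 fold change of -0.01 (SE 0.15), and Ifit2 had one of 0.34 (SE 0.21), neither past the threshold (adjusted p = 0.981 and 0.349 by limma). Genes of this family are similar in sequence, so reads may have been shared among them.

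Oasl2, an oligoadenylate synthetase-like protein (chr5:114896936-114912234), had the lowest level of the members. It was found at 3.47, 5.31, 3.85, 5.23 and 4.56 CPM with FSH. With saline it was found at 3.40, 6.04, 4.37, 3.80, 5.18 and 3.92 CPM. All 5 FSH values lay inside the saline range, and the sign of its log2 fold change of 0.02 (SE 0.16, fold interval 0.802 to 1.27, limma adjusted p = 0.967) turned under 11 of the 23 alternatives.

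**Figure D2:**
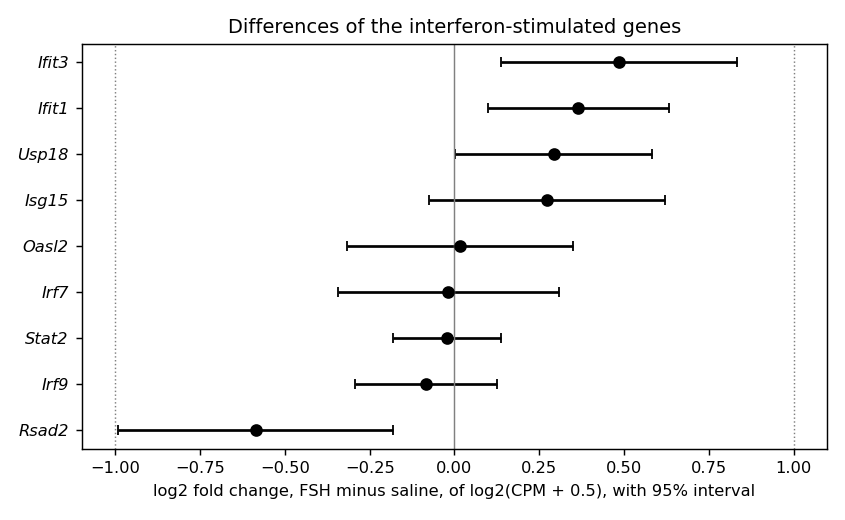
Log2 fold change (FSH minus saline, on the log2(CPM + 0.5) scale) of each of the 9 genes with its 95% interval from limma, with dotted lines at an absolute value of 1. Ifit3, Ifit1 and Usp18 lie above 0 and Rsad2 below 0 with their intervals, before adjustment over all genes, and the other 5 intervals include 0.

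The ISG15 system consists of the modifier itself, the enzymes that attach it and the protease that removes it. Isg15 (chr4:156199424-156200818), the modifier, had 10.6, 10.6, 10.2, 10.4 and 10.3 CPM in FSH livers. The saline livers had 7.72, 5.38, 11.8, 7.61, 11.5 and 9.02 CPM. The FSH livers thus formed a tight band inside a wide saline range, with 4 saline livers below and 2 above it. The means were 10.4 ± 0.192 (SD, n = 5) and 8.84 ± 2.47 CPM (SD, n = 6), and the log2 fold change was 0.27 (SE 0.16, fold interval 0.950 to 1.54, limma adjusted p = 0.327, exact permutation p = 0.165, two-sided). Without saline mouse 2, the lowest, it was 0.15, and over all 11 single livers left out it ranged from 0.15 to 0.36. The coefficient of variation was 1.84% among FSH livers, less than the 7.99% that counting error alone gives at 118 to 212 reads, and 28% among saline livers, where counting error gives 9.72%. The difference in spread was not tested.

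Usp18 (chr6:121245906-121270917), which removes ISG15 and also blocks the type I receptor from inside the cell, was at 6.98, 10.8, 6.91, 8.07 and 6.05 CPM with FSH. With saline it was at 5.56, 6.33, 5.33, 6.32, 6.48 and 6.84 CPM. The saline livers were close together, 4 FSH livers were above them all, and FSH mouse 2 was the highest. The means of 7.76 ± 1.83 (SD, n = 5) and 6.14 ± 0.576 CPM (SD, n = 6) gave a log2 fold change of 0.29 (SE 0.14, fold interval 1.00 to 1.5, limma p = 0.0484, adjusted p = 0.195, exact permutation p = 0.0368, two-sided). The value rested in part on FSH mouse 2, without which it was 0.17 (adjusted p = 0.423). A lincRNA, Gm44148, overlaps Usp18 on the other strand.

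The attaching enzymes were not members but belong to the same system. Ube2l6, the conjugating enzyme for ISG15, had 86.5, 81.5, 72.0, 70.9 and 70.5 CPM with FSH. With saline it had 52.2, 48.5, 46.5, 46.5, 55.3 and 52.7 CPM. The groups were well apart, and Ube2l6 was higher with FSH by limma (log2 fold change 0.59, SE 0.08, fold 1.51, adjusted p = 0.000501), the smallest p of all the pathway genes and a call kept under all 23 alternatives. The activating enzyme Uba7 (log2 fold change 0.19) and the ligase Herc6 (0.17) did not pass, so 1 of the 3 conjugation enzymes was called, beside 10.6% of all genes.

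Per kb of exon, averaged over the 11 livers, the levels ran from Isg15 (12.7 CPM per kb) through Irf7 (9.15), Ifit3 (7.68), Stat2 (5.68), Irf9 (3.99), Ifit1 (3.46), Usp18 (2.46) and Rsad2 (1.40) to Oasl2 (0.701 CPM per kb). Exon length was the union of the exons of all annotated transcripts, which for Irf7 (3776 bases) took in the whole span of the gene. The order may depend on this choice of length. Isg15 was above Irf7 in 10 of 11 livers, whereas Irf7 was above Ifit3 in only 6, so the order of that neighbouring pair is not separated by the spread over livers. Ifit3 exceeded Stat2 in 9 livers and Irf9 exceeded Ifit1 in 8. For Stat2 over Irf9, Ifit1 over Usp18, Usp18 over Rsad2 and Rsad2 over Oasl2, the order held in 11 of 11 livers.

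The members did not go up and down as one across livers. FSH mouse 2 was above the median of the 11 livers for 9 of 9 members, with a mean standardized level of 0.84 SD, and saline mouse 1 was above it for 0 of 9 (-1.09 SD) and lowest for 3. FSH mouse 3 was above the median for 2 members and saline mouse 3 for 4, the latter being highest for Irf7 and Isg15. Saline mouse 6 was highest for Stat2 and Rsad2.

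**Figure D3:**
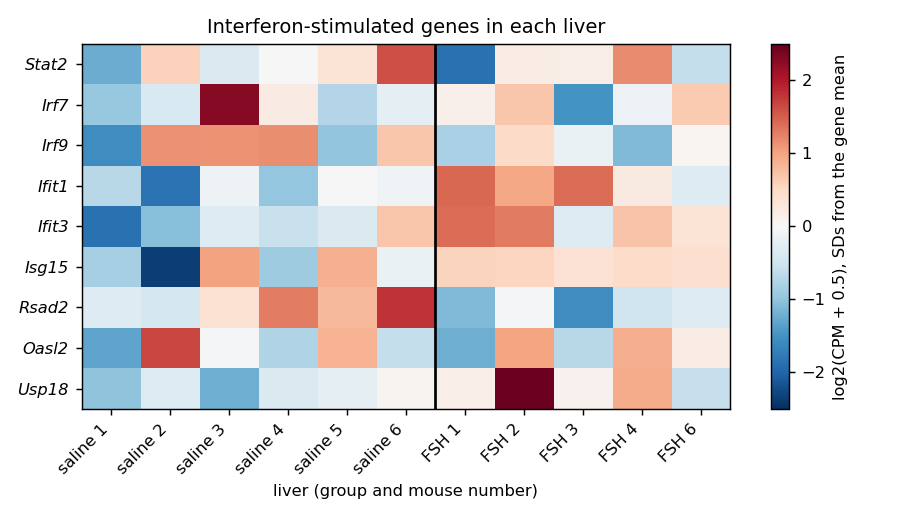
Each of the 9 genes (vertical axis) in each liver (horizontal axis), as log2(CPM + 0.5) in SDs from the mean of that gene over the 11 livers, with saline livers left of the line and FSH livers right. Rsad2 is mostly red on the saline side and blue on the FSH side while Ifit1 and Ifit3 have the opposite pattern, and saline mouse 1 is blue for all 9 genes.

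The balance between members was also described within each liver, as the ratio of the CPM of one gene to that of another, which does not depend on library scaling. Overlap was judged after 0.5 CPM was added to both genes, so the counts of pairs can depend on that scaling. Of the 36 pairs, the groups did not overlap for 3 (8.33%), close to the 7.35% of all pairs of tested genes, and each of the 3 had Rsad2 as its denominator. The ratio of Ifit3 to Rsad2 was 2.76 to 4.86 (median 3.27) in FSH livers and 1.25 to 1.96 (median 1.52) in saline livers. For Ifit1 to Rsad2 the ranges were 1.64 to 3.56 (median 1.95) and 0.838 to 1.53 (median 1.23). For Isg15 to Rsad2 they were 1.87 to 3.05 (median 2.15) and 0.853 to 1.80 (median 1.29). These pairs were picked after their values were seen and the ratios are given without a test. The share of such pairs among the members was near that of any genes.

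Markers of Kupffer cells and macrophages had lower means with FSH, as Rsad2 did. All 10 had negative log2 fold changes (median -0.55), with 6 at an unadjusted p under 0.05 (25.1% of all genes) and 0 called by limma after adjustment (edgeR and voom called 0, DESeq2 called 3: C1qa, C1qb and Clec4f). Their summed level was 334.3, 240.1, 179, 468.8 and 361.9 CPM in FSH mice 1, 2, 3, 4 and 6, and 307.2, 388.9, 462.8, 533.5, 530.4 and 541.4 CPM in saline mice 1 to 6. FSH mouse 3, with the lowest sum, also had the lowest Rsad2, and saline mouse 6, with the highest sum, also had the highest. In contrast, FSH mouse 2 had the second-lowest sum and the highest Rsad2 among FSH livers (5.68 CPM), and FSH mouse 4, with a higher sum than saline mouse 1, had less Rsad2 (4.84 against 5.15 CPM). In whole liver, fewer cells of a type and less RNA per cell cannot be told apart, and the part of these cells in the Rsad2 difference was not tested. Hepatocyte markers were abundant in every liver, with sums between 87770 and 116200 CPM. Plasmacytoid dendritic cells, known for their interferon output, had marker sums of 21.1 to 30.7 CPM with FSH and 20.7 to 32.3 CPM with saline. Only 2 of the 6 markers in that list were expressed enough to be tested, so these sums rest on few genes and are a weak measure of the cells. Among the other marker genes, Ass1 (0.59, a hepatocyte urea cycle enzyme), Ighm (0.72, an immunoglobulin chain) and Krt7 (0.69, a bile duct keratin) were higher with FSH and Lyve1 (-0.63, sinusoidal endothelium) was lower, each value being a log2 fold change past the limma threshold (adjusted p = 0.0112, 0.0219, 0.00731 and 0.0121). The lists these came from differed in direction. Of the 6 hepatocyte markers 2 had negative log2 fold changes (list median 0.03), and of the 6 sinusoidal endothelial markers 5 did (median -0.22), 3 of them at an unadjusted p under 0.05. In addition, 3 of the 5 tested B cell markers had negative log2 fold changes (list median -0.05), and so did 1 of the 5 cholangiocyte markers, Sox9 (-0.50, adjusted p = 0.0545 by limma), which DESeq2 called. The monocyte and neutrophil, T and NK cell, stellate cell and erythroid lists had 0 called markers by limma, edgeR, DESeq2 and voom and 0 at an unadjusted p under 0.05, and the neutrophil marker Ly6g had 0 reads. All 6 stellate cell markers had negative log2 fold changes (median -0.27), and the part of these cells and of the endothelium in the Rsad2 difference was not tested either. Without FSH mouse 1, 3 or 4 the call of Ighm was lost (adjusted p up to 0.0679), and with no filter on low genes that of Ass1 was lost (0.0504).

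The rest of the pathway was taken from lists of 174 genes arranged by role. Of these, 167 were in the table and 141 were expressed enough to be tested. By limma 15 of the 141 were called (10.6%, the same as the 10.6% of all genes), 9 higher and 6 lower with FSH, and 0 also passed an absolute log2 fold change of 1. On the same genes edgeR called 16, voom 17 and DESeq2 22. The median log2 fold change of the 141 was -0.02.

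Interferon transcripts themselves were barely detected. Among the 17 ligand genes measured, 16 had 0 reads in all 11 livers, which allows up to 0.151 CPM in the deepest and 0.278 CPM in the shallowest liver (counting error only). The exception was Ifng, interferon gamma, with 6 reads in all and at most 0.175 CPM. Among receptors and the JAK-STAT kinases and factors that carry their signal, 0 of 9 were called by limma, edgeR, DESeq2 or voom, and 0 had an unadjusted p under 0.05, beside 10.6% and 25.1% of all genes by limma. Ifnar2, a chain of the type I receptor, averaged 90.1 ± 9.90 CPM in FSH livers (SD, n = 5) and 98.4 ± 15.4 CPM in saline livers (SD, n = 6; log2 fold change -0.12). Ifngr2, a chain of the interferon gamma receptor, had 17.2 ± 4.51 and 14.5 ± 2.32 CPM (log2 fold change 0.22). Without FSH mouse 2 these values were -0.05 for Ifnar2 and 0.096 for Ifngr2, Ifnar2 was -0.05 also without saline mouse 5 and -0.18 without saline mouse 2, and Ifngr2 was 0.33 without FSH mouse 6.

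Sensors of foreign nucleic acid and their adaptors gave 4 calls of 14 by limma, 1 higher and 3 lower, beside 10.6% of all genes called (6.19% higher and 4.41% lower). voom called 4, and edgeR and DESeq2 called 5, the additional gene being Traf3, a signaling adaptor with a log2 fold change of -0.35 (adjusted p = 0.102 by limma). Ifih1, a sensor of long double-stranded RNA, had 18.9 to 31.7 CPM with FSH and 13.0 to 20.5 CPM with saline (log2 fold change 0.56, SE 0.15, adjusted p = 0.0276). Its groups overlapped only through FSH mouse 6. Ikbke, a kinase that activates Irf3 and Irf7, had 6.27 to 8.04 and 8.72 to 14.6 CPM (log2 fold change -0.54, SE 0.13, adjusted p = 0.0167), without overlap. Ticam1, the adaptor of Tlr3, and Tlr7, an endosomal receptor for single-stranded RNA, were lower too, with log2 fold changes of -0.53 (adjusted p = 0.0363) and -0.55 (adjusted p = 0.0494). Tlr7 was low, at 0.623 to 1.05 CPM with FSH and 0.913 to 2.01 CPM with saline, and its call was lost under 13 of 23 alternatives. The other interferon regulatory factors gave 0 calls of 6 by limma (10.6% of all genes), with 3 at an unadjusted p under 0.05, all lower (25.1% of all genes in either direction), while edgeR and DESeq2 each called 1 and voom 0. Irf2, which competes with activating factors of its family, was at -0.28 on the log2 fold change scale and did not pass (adjusted p = 0.102 by limma).

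**Figure D4:**
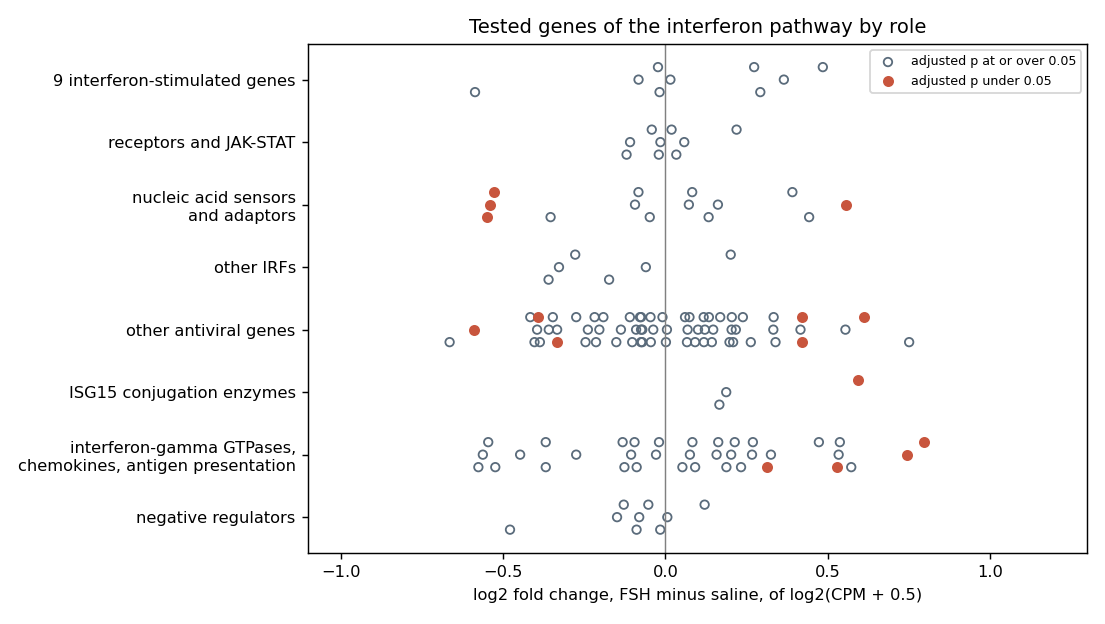
Log2 fold change (FSH minus saline, log2(CPM + 0.5) scale) of every tested gene of the interferon pathway, in lines by role, with the 9 interferon-stimulated genes at the top. Filled points mark the 15 genes with an adjusted p under 0.05, which lie on both sides of 0 for sensors and for other antiviral genes and only above 0 for the antigen presentation and conjugation enzyme lines.

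Of the 64 other antiviral genes 6 were called by limma, 3 in each direction, and 13 had an unadjusted p under 0.05, where 10.6% and 25.1% of all genes did. edgeR and voom also called 6, and DESeq2 called 9, adding Oas2 and Helz2, with negative log2 fold changes, and Ddx60, with a positive one (-0.66, -0.33 and 0.55 by limma). Nmi, a binding partner of STAT proteins, had 23.9, 22.1, 24.6, 22 and 22.3 CPM with FSH. It had 16.6, 17.4, 18.2, 16.2, 17.5 and 16.4 CPM with saline. Both groups were tight and apart (log2 fold change 0.42, SE 0.08, adjusted p = 0.00342). Trim25, a ubiquitin ligase for the RNA sensor RIG-I, had 54.7 to 74.1 CPM with FSH and 34.3 to 53.6 CPM with saline (log2 fold change 0.61, SE 0.12, adjusted p = 0.00474). Parp10, an ADP-ribosyltransferase, was higher by 0.42 on the log2 scale (adjusted p = 0.0369), and it overlaps Plec on the same strand. The lower genes besides Cmpk2 were Lgals9, which encodes a galectin (log2 fold change -0.33, adjusted p = 0.0255), and Ifi203 (-0.39, adjusted p = 0.0435), which overlaps Mndal on the same strand. The call of Ifi203 was lost under 12 of the 23 alternatives.

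Genes of the interferon gamma response, a list of GTPases, chemokines and antigen presentation genes, gave 4 calls of 36 by limma, 4 of them higher with FSH, beside 10.6% of all genes called and 6.19% called higher, and 14 at an unadjusted p under 0.05 (9 higher, 5 lower), beside 25.1% of all genes (1856 higher, 1340 lower). edgeR called 3, voom 6 and DESeq2 6, and 1 of the DESeq2 calls, H2-D1, a class I heavy chain, had a negative log2 fold change (-0.28 by limma, adjusted p = 0.0758). Psmb9, a catalytic subunit of the immunoproteasome, had 30.8, 24.2, 23.5, 31.9 and 23.1 CPM with FSH. It had 12.6, 14.8, 21.1, 12.9, 18.2 and 12.3 CPM with saline. Every FSH liver was above every saline liver (log2 fold change 0.80, SE 0.15, fold 1.74, limma adjusted p = 0.00334). Psmb10, another immunoproteasome subunit, was higher by 0.53 on the log2 scale (adjusted p = 0.0363), although its groups overlapped and 12 of 23 alternatives lost the call. Gbp7, a guanylate-binding GTPase, had 14.6 to 22.8 CPM with FSH and 9.71 to 13.7 CPM with saline (log2 fold change 0.74, SE 0.13, adjusted p = 0.00167). Tapbp, tapasin, which loads peptides onto class I molecules, had 112.6 to 141.9 and 96.4 to 110.8 CPM (log2 fold change 0.31, SE 0.08, adjusted p = 0.0186). Psmb9 overlaps Tap1 on the other strand, Gbp7 overlaps a pseudogene, Tapbp overlaps Zbtb22 on the same strand, and Psmb10 overlaps an antisense gene. Some of the reads of these genes could belong to their overlapping neighbours.

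Negative regulators of the pathway gave 0 calls of 9 by limma, edgeR, DESeq2 and voom, beside 10.6% of all genes by limma, and 1 at an unadjusted p under 0.05 (25.1% of all genes), Tnfaip3 (log2 fold change -0.48, limma adjusted p = 0.0730), a ubiquitin-editing enzyme. Next came Ptpn6, a phosphatase, at -0.15 (adjusted p = 0.396). Over all lists, the calls of Ube2l6, Gbp7, Psmb9, Nmi, Trim25 and Ikbke were kept under all 23 alternatives. The other 9 were each lost under between 2 and 13 of them, among them leaving out single livers (limma). Leaving out FSH mouse 1 raised the adjusted p of Tapbp to 0.0506. Cmpk2 was lost without FSH mouse 1, 2 or 3 or saline mouse 1 or 3, Ifih1 without FSH mouse 1, 2 or 4 or saline mouse 1 or 4, and Lgals9 without FSH mouse 3 or 4 or saline mouse 3, with adjusted p up to 0.0724, 0.0837 and 0.0721. For Ticam1, Parp10, Psmb10, Ifi203 and Tlr7, between 6 and 10 of the 11 livers each undid the call when left out, with adjusted p up to 0.0899, 0.109, 0.0952, 0.116 and 0.121. In the other direction, Tnfaip3 passed without saline mouse 4 (0.0227).

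**Figure D5:**
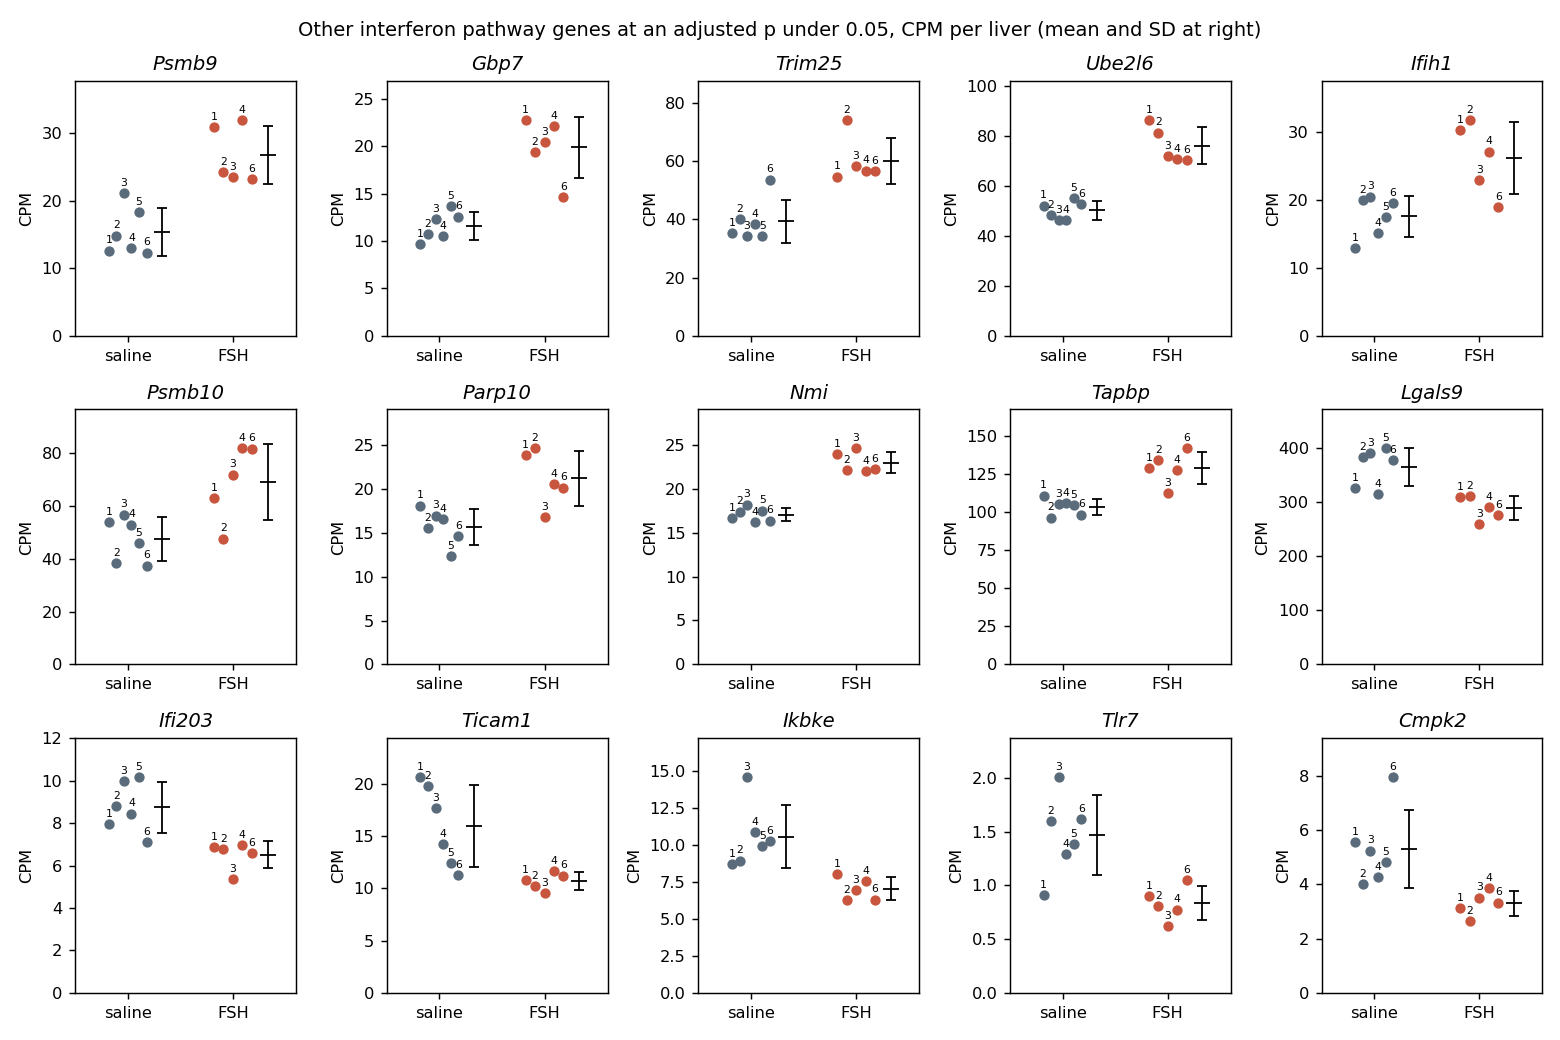
CPM in every liver (points, with the mouse number) of the 15 other interferon pathway genes with an adjusted p under 0.05, with the group mean and SD (bars). The first 9 panels have the higher mean in FSH livers and the last 6 in saline livers; Ube2l6 lies at 70.5 to 86.5 CPM with FSH and 46.5 to 55.3 CPM with saline.

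The genes most like the members were sought over the 11 livers, as the correlation of log2(CPM + 0.5) with the mean standardized level of the 9, both centred on their group means. Predicted and unnamed genes (Gm and Rik symbols, or an Ensembl identifier alone) were left out of this ranking. Among the rest, the highest Pearson r were those of Xist (0.941), Rpusd2 (0.940), Ap5m1 (0.929), Fam107b (0.923) and Ptprm (0.922), none of which is in the interferon lists. Without the pair of livers farthest from the median, r stayed between 0.799 and 0.882 for these 5. The median r was 0.313 over the 141 other pathway genes and 0.13 over all 12724 tested genes outside the members. The livers share library, depth and mouse across all genes, and the correlations are descriptions only.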

How the data were processed

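Paired-end NEBNext Ultra libraries of total liver RNA were sequenced on an Illumina HiSeq2500. The submitters' processing notes name FastQC 0.11.2, Trim Galore 0.3.3, cutadapt, STAR, RSEM and the mm10 genome; annotation and strand use are not given in the sources used here. The authors deposited CPM values for 36788 Ensembl genes, each library scaled to 1000000 with no further scaling between libraries. All values came out as whole reads (tolerance 0.05 reads), which gave the depths. Symbols and coordinates are from GENCODE M21 (GRCm38) and matched 35555 identifiers.

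The 12733 genes averaging 0.5 CPM or more over the livers entered one limma 3.58.1 fit (R 4.3.3) on log2(CPM + 0.5), with moderated variances (eBayes, intensity trend) and p-values adjusted by Benjamini-Hochberg. A fold change on this scale understates that of low genes. A gene was called at an adjusted p under 0.05. The study's own criterion, which also needs a log2 fold change beyond 1 in size, was counted separately. Single members were also tested with a two-sided exact permutation test. Libraries did not match within sampling noise, so each counted as 1 replicate.

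The members and the gene lists were chosen with earlier results of these data known. Beyond the members, the text names from each pathway list at most 6 genes that passed or, where none did, at most 2 by p. From each marker list it names up to 3 that passed. It also names the 5 genes most like the members, once predicted and unnamed genes were set aside. Ifit2, Ifit3b, Uba7, Herc6, Ifng, Ly6g, Sox9, H2-D1, Traf3, Oas2, Helz2, Ddx60, C1qa, C1qb and Clec4f were named after their values were seen. Some results are left out. The functions were tested on simulated data. The 23 alternatives were other pseudocounts, filters and scalings, a fit with no trend, one with array weights, one with a replicate block, voom, edgeR 4.0.16 and DESeq2 1.42.0 on the whole reads, and leaving out each liver.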

Additional observations from a re-analysis of the deposited data

Results flagged for a closer look

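In 66 sets of 5 or 6 livers (the 9 members and 24 other genes of the pathway and marker lists, each in the FSH and the saline group), 5 held a single liver whose gap to the nearest other exceeded Dixon's 95% critical value, where chance gives about 1 in 20. One is a member: Irf7 was 52.6 CPM in saline mouse 3, with the other saline livers between 28.3 and 35.3 CPM. The same liver had the highest Ikbke among saline livers, at 14.6 CPM against 8.72 to 10.9 CPM in the others. FSH mouse 2 was set apart for Trim25, at 74.1 CPM with the others at 54.7 to 58.2 CPM. Saline mouse 6 had 53.6 CPM of Trim25, above the 34.3 to 40.2 CPM of the other saline livers. Ifi203 was lowest in FSH mouse 3, at 5.38 CPM against 6.57 to 6.98 CPM. Of these livers, FSH mouse 2 was also the one above the median for all 9 members. Without saline mouse 3, Ikbke kept its call.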

How the results depend on the processing

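No member passed by limma, and the count of members called stayed at 0 under 8 of the 12 other settings. It was 1 with median of ratios scaling (Rsad2, adjusted p = 0.0498), 2 with array weights (Rsad2 0.0334 and Ifit1 0.0463), 1 by edgeR (Rsad2 0.0370) and 2 by DESeq2 (Rsad2 0.0118 and Ifit3 0.0463), and between 0 and 1 with one liver left out. For 6 of the 9 members the direction was the same under all 23 alternatives. The log2 fold change of Oasl2 turned to -0.0087 with median of ratios scaling, -0.00059 with upper quartile scaling, -0.021 with array weights, -0.0047 with voom, -0.028 by edgeR and -0.027 by DESeq2, and lay between -0.049 and 0.10 with one liver left out. With one liver left out, Irf7 ranged from -0.071 to 0.11 and Stat2 from -0.046 to 0.0050. The 15 pathway calls became 8 without a filter on low genes, when genes with few reads entered both the fit and the adjustment. They ranged from 7 (without FSH mouse 1) to 17 with one liver left out. Over all genes, the 1350 calls became 804 without FSH mouse 1 and at most 1659 without another liver. The scalings moved the median log2 fold change of all genes by less than 0.1. With the replicate block, 0 members and 1210 genes were called. The deviations of same-numbered mice correlated between -0.0662 and 0.356, and 1 of 5 FSH mice matched its own number best. The labels do not say whether the numbers pair mice, and this check cannot exclude it. The mice were treated as unpaired. Depth limits the lowest member most: at 41 to 83 reads of Oasl2 per saline liver, counting error alone gives a coefficient of variation of 13.6%, of the 22.1% observed.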
